A study of Mus musculus with 4 samples.

Results

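H3K9me3-dominant bins are 5 kb stretches of the mouse autosomes, on build mm8, in which trimethylation of lysine 9 of histone H3 (H3K9me3) was high in 2 kinds of embryonic fibroblast and exceeded the other marks measured. Levels are given as fold, the reads in a bin divided by the mean of the same library over all autosomal bins with a read in any library. A bin was kept when the H3K9me3 fold was 2 or more in secondary fibroblasts and in ordinary fibroblasts, and each of these folds was at least 2 times the mean of the H3K4me3 and H3K27me3 folds of ordinary fibroblasts. The rule was met by 2328 of 465838 occupied autosomal bins, or 0.5%. Since the rule used the levels of all 4 libraries, those levels are a description and no test was made on them.

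The values came from chromatin immunoprecipitation with sequencing, with 4 libraries and 1 library in each group, so no comparison has a replicate check and each one is between libraries. Secondary mouse embryonic fibroblasts (secondary MEF) were taken at 13.5 days post coitum from chimeric embryos. The chimeras were made by putting induced pluripotent stem cells, with Oct4, Klf4 and Sox2 under doxycycline control and an Oct4-selectable cassette, into BDF2 blastocysts, and 2 µg/ml puromycin for 48 hours was used to keep fibroblasts of the injected line. Ordinary mouse embryonic fibroblasts (MEF), grown with 10% FBS where the secondary cells had 10% cosmic calf serum, gave libraries of H3K9me3, H3K4me3 and H3K27me3. The labels give no strain, embryonic age or genotype for MEF, no length of doxycycline treatment for either, and no measure of host cells left among secondary MEF. One antibody lot served both H3K9me3 libraries, but the run names differ between the secondary MEF library and the 3 MEF libraries, so cell source and run cannot be told apart. The other marks were taken from MEF alone, those of secondary MEF being not analysed here, and the libraries hold no expression values against which to check the cell type.

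H3K9me3 is laid down by the SUV39H enzymes and SETDB1 and is bound by heterochromatin protein 1. It is the mark of constitutive heterochromatin, including the satellite repeats beside centromeres, and of many silenced retrotransposons and zinc finger gene clusters. H3K4me3 marks active and poised promoters, and H3K27me3 is the mark of Polycomb repressive complex 2. Short reads from copied sequence align to several places, so the reads that align to 2 locations, which the rule did not use, show where a bin holds sequence with a near-identical second copy.

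The secondary MEF H3K9me3 library held 7852786 autosomal reads with 1 location. The MEF libraries held 8712483 for H3K9me3, 12027212 for H3K4me3 and 9559012 for H3K27me3. A bin held 16.9 reads on average in secondary MEF H3K9me3, 18.7 in MEF H3K9me3, 25.8 in MEF H3K4me3 and 20.5 in MEF H3K27me3. Reads at distinct positions made up between 91.4% and 97.9% of each library. All intervals below are at the 95% level and cover counting error only, since reads amplified by PCR without molecular identifiers are not independent molecules.

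Most H3K9me3-dominant bins carried modest H3K9me3, with the other marks near their library means. Their median H3K9me3 fold was 2.67 in secondary MEF and 2.41 in MEF, with medians of 0.736 for H3K4me3 and 1.12 for H3K27me3. Over all occupied bins the medians were 0.830 and 0.855 for H3K9me3 in secondary MEF and MEF, 0.310 for H3K4me3 and 0.634 for H3K27me3. The members therefore lay above the genome's median in every library, the other marks included. H3K27me3 was above H3K4me3 in 77.2% of them. That share was not computed over all occupied bins, where the H3K27me3 median was also the higher, so it is not shown to be particular to members. From the 5th to the 95th percentile the members' H3K9me3 ran between 2.08-fold and 5.34-fold in secondary MEF and between 2.03-fold and 4.28-fold in MEF. H3K4me3 ran between 0.310-fold and 1.55-fold and H3K27me3 between 0.536-fold and 1.90-fold over the same percentiles. The middle of the set was thus narrow, while the highest member reached 159-fold in secondary and 212-fold in ordinary MEF.

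The rule took a small part of the bins with shared H3K9me3. At 2-fold or more stood 9.89% of all occupied bins in secondary MEF H3K9me3, 9.94% in MEF H3K9me3, 6.28% in MEF H3K4me3 and 10.8% in MEF H3K27me3. Both H3K9me3 libraries were at 2-fold or more in 23833 bins (5.12%), and the 21505 of these that the rule left out are called the remaining shared bins. Their H3K9me3 medians, 2.55-fold in secondary and 2.57-fold in ordinary MEF, were close to those of the members. Their other marks were higher by construction, at medians of 1.63-fold H3K4me3 and 2.63-fold H3K27me3. The members are thus set apart from the remaining shared bins by the other marks and not by their H3K9me3 level.

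**Figure D1:**
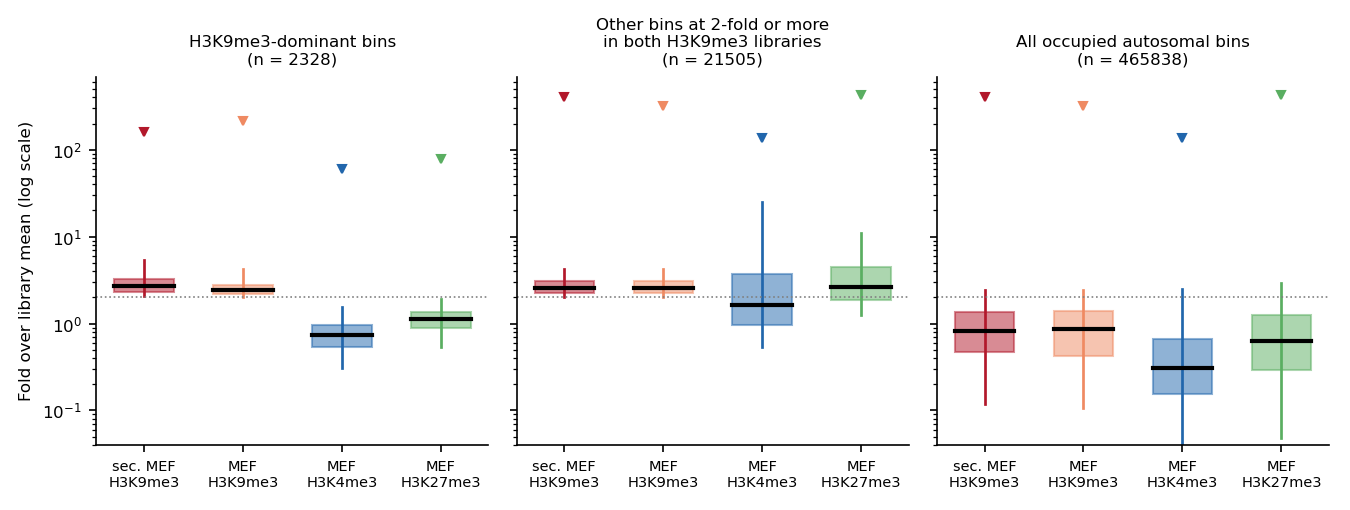
Fold over the library mean (log scale) in secondary MEF H3K9me3, MEF H3K9me3, MEF H3K4me3 and MEF H3K27me3, for the 2328 H3K9me3-dominant bins, the 21505 remaining bins at 2-fold or more in both H3K9me3 libraries, and all 465838 occupied autosomal bins. Boxes span the 25th to 75th percentile with the median as a line, whiskers the 5th to 95th percentile, triangles the highest bin, and the dotted line is 2-fold; the lower whisker of H3K4me3 in all bins is drawn to the edge of the plotted range, since its 5th percentile is 0; the first 2 panels have like H3K9me3 and differ in the other marks, as the rule sets.

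Most members lay near the thresholds. The smaller of both H3K9me3 folds was between 2 and 2.5 in 1552 bins (66.7%), between 2.5 and 3 in 452, between 3 and 4 in 209, between 4 and 6 in 66, between 6 and 10 in 17, and 10 or more in 32. The smaller H3K9me3 fold divided by the mean of the other marks had a median of 2.46, an upper quartile of 3.03 and a maximum of 10.0. This ratio was not computed over all occupied bins. There the H3K9me3 medians (0.830-fold and 0.855-fold) also stood above those of H3K4me3 (0.310-fold) and H3K27me3 (0.634-fold), so part of the ratio is usual on this scale. The threshold of 2-fold fell at 34 reads in secondary MEF and 38 reads in MEF, as in the bin chr1:127630001-127635000, which had 34 and 38 reads (2.02-fold and 2.03-fold). The intervals of that bin were 1.40 to 2.82 in secondary MEF and 1.44 to 2.79 in MEF, so a single bin at this depth could not be placed on either side of the threshold. Of the other bins just inside, chr1:153590001-153595000 had 2.02-fold and 2.46-fold and chr1:171780001-171785000 had 2.02-fold and 2.09-fold. The 3 bins just outside had 37 reads (1.98-fold) in MEF, with 2.49-fold, 2.14-fold and 3.26-fold in secondary MEF at chr1:35200001-35205000, chr1:39290001-39295000 and chr1:95370001-95375000. At the other threshold, the ratio to the other marks was 2.00 to 3 digits both just inside (chr5:148665001-148670000, chr12:103065001-103070000 and chr5:130300001-130305000) and just outside (chr6:137760001-137765000, chr7:79960001-79965000 and chr12:100685001-100690000). Membership of single bins is therefore loose, and the account below rests on groups of bins and on the few that stand well clear.

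Reads of 1 strand gave a view of how stable membership was at this depth, a step added after seeing the data. Chosen on plus-strand reads alone, 3351 bins met the rule, and 831 of them (24.8%, 23.3 to 26.3) met it again on minus-strand reads, where 0.716% of all occupied bins did. Chosen on minus-strand reads, 831 of 3334 (24.9%, 23.5 to 26.4) met it on plus-strand reads, where 0.719% of all bins did. Both H3K9me3 libraries reached 2-fold on the other strand in 40.8% of the bins chosen on the plus strand (5.44% of all bins) and in 41.5% of those chosen on the minus strand (5.45% of all bins). The bins chosen on the plus strand had minus-strand medians of 2.37-fold in secondary MEF H3K9me3, 2.03-fold in MEF H3K9me3, 0.774-fold in H3K4me3 and 1.27-fold in H3K27me3. On the other strand both H3K9me3 libraries were above their own means, and both above the mean of the other marks, in 88.5% of bins chosen on the plus strand (18.4% of all bins) and in 89.3% of those chosen on the minus strand (18.5% of all bins). Most such bins thus met this weaker criterion on the second reading, while the thresholds of the rule were often missed. Both strands of a library come from 1 immunoprecipitation, and the rule used the reads of both. This is therefore no replicate and no support for the H3K9me3 excess.

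The members fell into a large group with neither other mark at 2-fold and a small one with both at 2-fold or more. Under 2-fold does not mean low. Members outside the small group had medians of 0.717-fold H3K4me3 and 1.12-fold H3K27me3, above the 0.310-fold and 0.634-fold of all occupied bins. Neither H3K4me3 nor H3K27me3 reached 2-fold in 2216 members (95.2%), and both were under their own mean in 661 (28.4%). Taken singly, H3K4me3 reached 2-fold in 2.79% of members and 6.28% of all occupied bins, and H3K27me3 in 3.65% and 10.8%. H3K4me3 was under its mean in 75.5% of members and 85.2% of all occupied bins, and H3K27me3 in 36.6% and 66.3%. Bins under the mean were thus fewer among members than among all bins for each of these marks. Only H3K4me3 reached 2-fold in 27 members and only H3K27me3 in 47. Both reached 2-fold in 38 members (1.63%), and both 5-fold in 22. These 38 bins, a group formed after their values were seen, had median H3K9me3 of 24.3-fold in secondary and 25.1-fold in ordinary MEF, with 7.13-fold H3K4me3 and 8.33-fold H3K27me3. They met the rule because H3K9me3 was higher still, and they included 30 of the 32 members with 10-fold H3K9me3 or more in both libraries.

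The highest members all belonged to that small group. On chr2:98460001-98470000 the higher bin held 2683 reads in secondary MEF H3K9me3 (159-fold, interval 153 to 165), and 3972 in MEF H3K9me3 (212-fold, 206 to 219), 1570 in MEF H3K4me3 (60.8-fold) and 1592 in MEF H3K27me3 (77.6-fold). The H3K9me3 reads of this bin lay at only 485 distinct positions in secondary MEF and 511 in MEF. The first occupied bin of chromosome 5, chr5:3000001-3005000, held 974 reads in secondary MEF H3K9me3 (57.8-fold) and 1733 in MEF H3K9me3 (92.7-fold), against 659 in H3K4me3 (25.5-fold) and 628 in H3K27me3 (30.6-fold). Each of these bins was thus raised in all 4 libraries, and H3K9me3 was higher in MEF than in secondary MEF.

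The next 2 regions in this order lay side by side near the start of chromosome 11. The region chr11:3030001-3085000, at 55 kb also the longest of all, had mean levels of 47.0-fold in secondary MEF H3K9me3, 40.7-fold in MEF H3K9me3, 13.1-fold in H3K4me3 and 21.8-fold in H3K27me3. In its highest bin, chr11:3050001-3055000, the folds were 82.8, 55.4, 20.5 and 24.0 in the same order of libraries. The region chr11:3090001-3100000 reached 60.6-fold in secondary and 54.6-fold in ordinary MEF, with 35.3-fold H3K4me3 and 19.1-fold H3K27me3. The remaining 2 of the 6 highest regions were chr9:3015001-3035000, at 27.8-fold and 37.7-fold in its highest bin, and chr9:3000001-3010000, at 19.3-fold and 25.7-fold. Of the 38 bins, 24 lay in the first 1 Mb of covered sequence of a chromosome, 13 of them between 3030001 and 3100000 on chromosome 11, and none lay in the last 10 Mb of a chromosome. Mouse chromosomes are acrocentric, so the start of a chromosome is its centromeric end.

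Among members in which neither other mark reached 2-fold, the highest levels were near 10-fold, and these bins were singled out after their values were seen. The bin chr2:165070001-165075000 held 175 reads in secondary MEF H3K9me3 and 157 in MEF H3K9me3, against 51 in MEF H3K4me3 and 35 in MEF H3K27me3. That is 10.4-fold (8.90 to 12.04) in secondary MEF and 8.39-fold (7.13 to 9.82) in MEF, with 1.98-fold H3K4me3 and 1.71-fold H3K27me3. Nearly all of its H3K9me3 reads were at positions of their own, 168 of 175 in secondary MEF and 154 of 157 in MEF. The reads of this bin were thus not stacked. Its H3K4me3 was just under the 2-fold limit by which these bins were picked and above the members' 95th percentile of 1.55-fold.

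The next in this order was chr7:23810001-23815000, with 161 reads in secondary MEF H3K9me3 (9.55-fold) and 133 in MEF H3K9me3 (7.11-fold), against 47 in H3K4me3 (1.82-fold) and 21 in H3K27me3 (1.02-fold). At chr5:112110001-112115000 the H3K9me3 libraries were close to each other, with 110 reads in secondary MEF (6.53-fold) and 109 in MEF (5.83-fold). The same held at chr4:151345001-151350000, with 102 reads (6.05-fold) and 108 reads (5.77-fold), where H3K4me3 had 32 reads and H3K27me3 33. In contrast, chr6:47950001-47955000 had 165 reads in secondary MEF (9.79-fold) and 107 in MEF (5.72-fold), a ratio of folds of 1.71 (1.33 to 2.20). The bin chr10:79135001-79140000 had 129 reads in secondary MEF (7.65-fold) and 108 in MEF (5.77-fold) and adjoined a second member, and both together averaged 15.1-fold in secondary and 9.49-fold in ordinary MEF.

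In windows of 500 bp these 6 bins showed H3K9me3 in separate shapes. At the chromosome 2 bin both H3K9me3 libraries peaked near the middle, with 31 secondary and 30 ordinary MEF reads in the window centred 250 bp before the bin's centre. In the chromosome 7 bin the reads were crowded into the right-hand side, with up to 37 reads per window in secondary MEF and 31 in MEF. On chromosome 10 the highest windows lay in the neighbouring member. The H3K4me3 reads near the chromosome 2 bin formed a narrow peak outside the bin, with 216 reads (83.7-fold for a window of this size) in the window centred 6750 bp after the bin's centre.

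**Figure D2:**
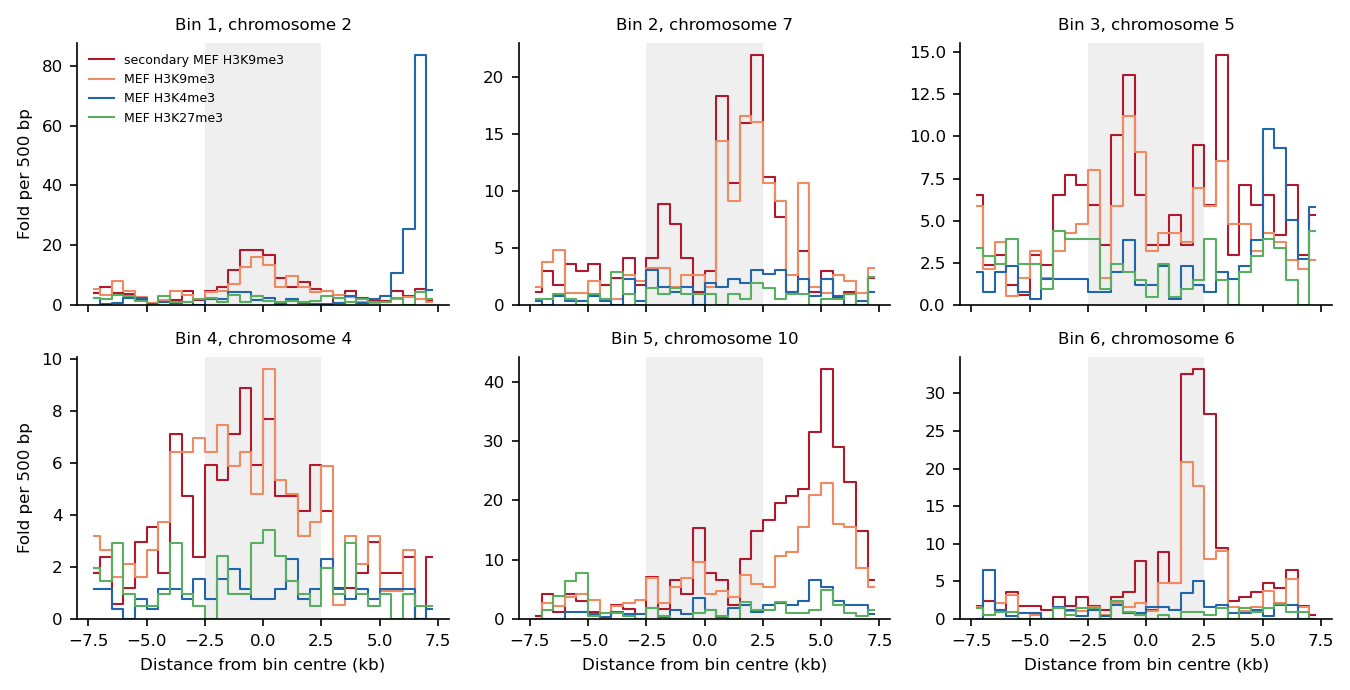
Fold per 500 bp window (linear scale, the vertical range differs between panels) against distance from the bin centre (kb) in all 4 libraries, for the 6 members with the highest smaller H3K9me3 fold among those with neither other mark at 2-fold, numbered in that order; grey marks the 5 kb bin. Secondary MEF and MEF H3K9me3 mostly rise at the same places. The highest H3K9me3 windows lie beyond the right edge of the bin in bin 5, and inside the bin near that edge in bin 6.

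Most members stood alone, and yet they lay closer to one another than bins in general lay to them. Joining adjacent members gave 2094 regions, of which 1919 (91.6%) were a single bin, 146 were 10 kb, 15 were 15 kb, 8 were 20 kb, 3 were 25 kb, 2 were 35 kb and 1 was 55 kb. A member in an adjacent bin was found for 409 members, or 17.6% (16.0 to 19.2), while 0.967% of all occupied bins lay next to a member. The median distance to the nearest other member was 70 kb. Another member lay within 100 kb for 57.7% of members and within 1 Mb for 92.6%, and the shares of all occupied bins with a member that near were 12.5% and 51.3%. The share of members with another member near was thus above that of all bins at each of these distances.

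The remaining shared bins were packed more closely, with another of their kind in an adjacent bin for 53.9% and at a median distance of 5 kb. They are also far more numerous, and 7.86% of all occupied bins lay next to one of them. Without the 38 bins raised in every mark, the share of members with an adjacent member was 16.3% and the median distance was again 70 kb.

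**Figure D3:**
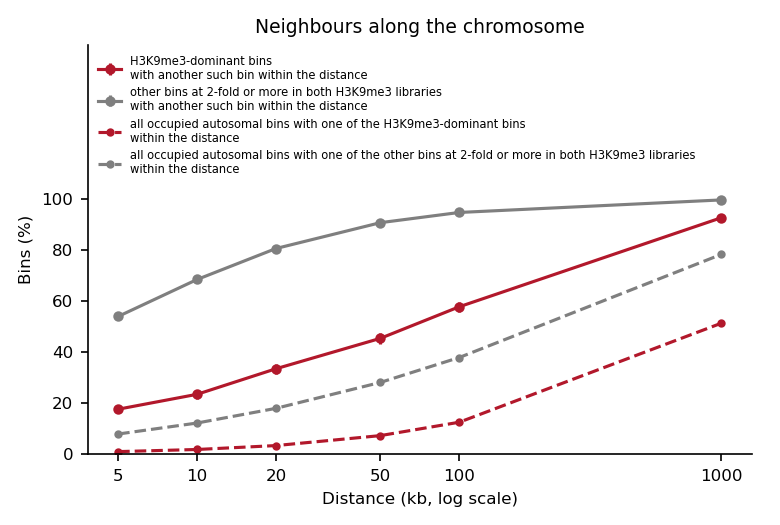
Share of bins (%) with another bin of the same set within a distance (kb, log scale), for the 2328 H3K9me3-dominant bins (red) and the 21505 remaining bins at 2-fold or more in both H3K9me3 libraries (grey); bars are 95% Clopper-Pearson intervals, mostly smaller than the points. Dashed lines give the share of all occupied autosomal bins with a bin of that set within the same distance, and for the members the solid line lies above the dashed one at every distance, with 57.7% against 12.5% at 100 kb.

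The longest regions outside the chromosome 11 stretch differed in their other marks, which were lowest on chromosome 4. The 35 kb of chr3:25710001-25745000 had means of 4.38-fold in secondary MEF H3K9me3, 3.41-fold in MEF H3K9me3, 1.04-fold in H3K4me3 and 1.91-fold in H3K27me3. The other 35 kb region, chr4:152150001-152185000, had means of 2.61-fold, 2.22-fold, 0.548-fold and 0.633-fold in the same order. Regions of 25 kb followed at chr4:152240001-152265000, with H3K9me3 means of 2.95-fold in secondary and 2.36-fold in ordinary MEF, and at chr4:152545001-152570000, with 2.93-fold and 2.34-fold. In these 3 chromosome 4 regions H3K4me3 averaged between 0.442-fold and 0.548-fold and H3K27me3 between 0.633-fold and 0.828-fold. All 3 lie in a single 1 Mb window. A further region of 25 kb, chr5:143505001-143530000, was higher, with means of 9.43-fold in secondary MEF H3K9me3, 5.36-fold in MEF H3K9me3, 1.66-fold in H3K4me3 and 1.39-fold in H3K27me3.

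A part of the members gathered in a small number of 1 Mb windows. Of 2413 windows 854 held at least 1 member and 378 held exactly 1, while 119 windows with 5 or more held 42.9% of the members and 21 windows with 10 or more held 391 members (16.8%). The window with the most, chr4:152000001-153000000, held 56 in its 200 bins, in 31 regions. Over this window, members or not, H3K9me3 averaged 2.15-fold in secondary and 1.92-fold in ordinary MEF, with 1.02-fold H3K4me3 and 1.36-fold H3K27me3. The windows chr4:139000001-140000000 with 33 members, chr4:151000001-152000000 with 30, chr15:87000001-88000000 with 29 and chr2:179000001-180000000 with 21 came next. Their means lay between 2.13-fold and 2.30-fold in secondary MEF H3K9me3 and between 1.52-fold and 2.09-fold in MEF H3K9me3. The window on chromosome 15 had the lowest other marks of these (0.451-fold H3K4me3 and 0.749-fold H3K27me3 on average), and the one on chromosome 4 from 139000001 had more H3K27me3 (2.42-fold) than MEF H3K9me3 (2.09-fold). In each of these 5 windows the median bin, member or not, was above the library mean in both H3K9me3 libraries, between 2.14-fold and 2.31-fold in secondary MEF and between 1.52-fold and 2.03-fold in MEF.

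The 391 members in windows with 10 or more differed from the other 1937 in several values. Their median H3K9me3 was 2.91-fold in secondary and 2.30-fold in ordinary MEF, and the other members had 2.61-fold and 2.41-fold. Their H3K4me3 median was 0.542-fold and their H3K27me3 median 0.926-fold, against 0.736-fold and 1.17-fold in the other members. The median ratio of secondary MEF to MEF H3K9me3 was 1.23 in the crowded windows, and 1.06 elsewhere. Bins of the crowded windows that were not members showed a ratio of 1.25, so the higher secondary level there was not limited to members. Without chromosome 12 the ratio was 1.22 in members of the crowded windows, 1.05 in the other members and 1.19 in the bins of crowded windows that were not members.

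Chromosomes differed several-fold in how many of their bins were members. Chromosome 5 had the most, 278 members or 9.69 per 1000 occupied bins (8.59 to 10.9), followed by chromosome 12 with 194 (8.66), chromosome 4 with 228 (7.80), chromosome 17 with 126 (7.07) and chromosome 15 with 133 (6.69). Chromosome 14 had the fewest, 36 members or 1.59 per 1000 (1.11 to 2.20), and chromosome 3 had 72 (2.34). The count of chromosome 12 depends on scaling, since its mean secondary MEF H3K9me3 stood at 1.33-fold and its mean MEF H3K9me3 at 0.912-fold of the autosomal mean. When reads were scaled within each chromosome, a step added after seeing the data, chromosome 12 had 113 members.

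The distal ends of chromosomes were rich in members. The last 10 Mb of chromosomes held 495 members, or 21.3% (19.6 to 23.0), against 15.8% of the remaining shared bins and 7.86% of all occupied bins. Chromosome 4 alone gave 101 of these 495 and chromosome 5 gave 60. In contrast, chromosome 13 gave 5 of its 80 members and chromosome 17 gave 9 of its 126. The last 2 Mb did not share this, with 18 members (0.773%, 0.459 to 1.22), against 1.59% of all occupied bins. The first 1 Mb held 44 members (1.89%, 1.38 to 2.53), against 0.745% of all occupied bins, and 24 of those 44 belonged to the 38 bins raised in every mark. Without the 38, the first 1 Mb held 20 members (0.873%, 0.534 to 1.35), an interval that includes the share of all bins.

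Reads with 2 locations made up more of the members' lines than of the genome's, and in H3K9me3 a few bins carried that excess. Each such read is listed at both of its locations, and a share is its lines over all lines in the bins. In members the share was 13.4% (13.2 to 13.5) in secondary MEF H3K9me3, 17.2% (17.0 to 17.3) in MEF H3K9me3, 17.1% in MEF H3K4me3 and 16.1% in MEF H3K27me3. In occupied bins outside the members it was 5.94%, 5.75%, 4.04% and 4.72% in the same order. The share was thus raised in all 4 libraries and not in H3K9me3 alone.

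The 38 bins raised in every mark held most of these lines. Their 2-location share was 40.7% in secondary MEF H3K9me3, 48.0% in MEF H3K9me3, 45.6% in H3K4me3 and 45.4% in H3K27me3. Without them the share of the members was 5.58% (5.45 to 5.71) in secondary MEF H3K9me3 and 5.47% (5.34 to 5.60) in MEF H3K9me3. Both were slightly under the bins outside the members. In H3K4me3 and H3K27me3 the share without the 38 was 6.37% and 5.88%, still above the 4.04% and 4.72% of bins outside the members. The 2 members with the most lines, both on chr2:98460001-98470000, held 39.7% of the 48910 lines of both H3K9me3 libraries in members, the top 10 held 61.7%, and 851 members had no such line. Pooled shares over all members are therefore weighted to a handful of bins.

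Counted by bin, the picture was of many members with a few 2-location lines. At least 1 such line was present in 48.0% of members in secondary MEF H3K9me3 and 48.5% in MEF H3K9me3, against 37.9% and 40% of all occupied bins. A share of 20% or more was found in 89 members (3.82%) in secondary MEF and 77 (3.31%) in MEF, against 0.758% and 0.744% of the remaining shared bins, which have like H3K9me3 medians. Of all occupied bins, many of which hold few reads, 11.3% and 11.2% had such a share. Pooled over bins, the remaining shared bins had shares of 2.25% in secondary MEF and 2.43% in MEF. Members without the 38 were above these, at 5.58% and 5.47%, so against bins of like H3K9me3 the excess was not limited to the 38.

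As a fold over the mean of 2-location lines per bin, members without the 38 stood at 2.73 (2.66 to 2.79) in secondary MEF H3K9me3 and 2.39 (2.33 to 2.45) in MEF H3K9me3, with 1.24 (1.20 to 1.29) in H3K4me3 and 1.40 (1.36 to 1.45) in H3K27me3. These lines were not used by the rule, and their order of libraries was that of the reads with 1 location. The rule itself, applied to 2-location lines alone, was met by 92 of the 2290 members without the 38 (4.02%), against 1.54% of all occupied bins and 0.707% of the remaining shared bins. Both H3K9me3 libraries were at 2-fold or more in 2-location lines in 231 of all 2328 members (9.92%), against 5.22% of all occupied bins.

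The share was higher in bins of 4-fold or more. Where the smaller fold was between 2 and 2.5, it was 4.65% in secondary MEF and 4.77% in MEF, between 2.5 and 3 it was 4.08% and 3.90%, and between 3 and 4 it was 6.53% and 5.71%. It reached 15.5% and 16.8% between 4 and 6, 24.3% and 29.6% between 6 and 10, and 39.9% and 47.6% at 10 or more. H3K4me3 and H3K27me3 reads in the same bins rose alike. Of the 32 bins at 10 or more, 22 lay before 4 Mb on their chromosome.

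**Figure D4:**
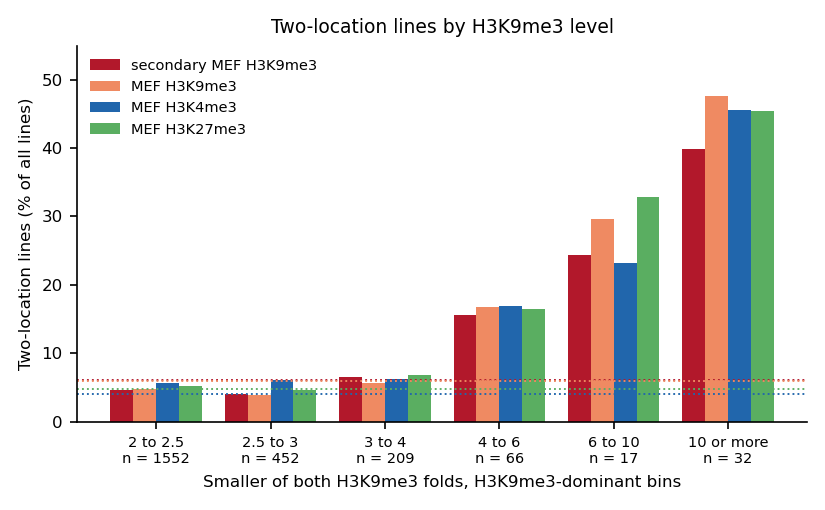
Share of lines (%) that belong to reads with 2 locations, in H3K9me3-dominant bins grouped by the smaller of both H3K9me3 folds, for secondary MEF H3K9me3, MEF H3K9me3, MEF H3K4me3 and MEF H3K27me3; bars start at 0 and dotted lines give the share of each library over all occupied autosomal bins. The first 3 groups lie between 3.90% and 6.78%, with H3K4me3 above its dotted line (4.11%) in each, and all libraries climb together above 4-fold.

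Single members with the highest 2-location shares differed in level. The bin chr5:33050001-33055000 had ordinary levels of reads with 1 location, 43 in secondary MEF H3K9me3 (2.55-fold) and 46 in MEF H3K9me3 (2.46-fold), beside 575 and 766 lines of reads with 2 locations. Over both libraries 93.8% of its lines were of that kind. At chr1:85155001-85160000 the counts were 59 and 45 reads with 1 location and 472 and 420 lines with 2, a share of 89.6%. The third, chr2:98460001-98465000, had 906 and 1051 reads with 1 location and 2759 and 4630 lines with 2, a share of 79.1%. In all 3 bins, then, most lines lay outside the level that the rule used.

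Members with no other member within 1 Mb, 173 in number, had 2-location shares of 12.5% in secondary MEF H3K9me3 and 11.2% in MEF H3K9me3 without the 38. In windows with 10 or more members the shares were 1.83% and 1.92%. A single bin, chr1:85155001-85160000, with 472 lines in secondary MEF and 420 in MEF, weighed heavily on the value of the lone members. Without it and the bin with the next most lines, chr17:3030001-3035000 (104 and 109 lines), the 171 lone members left had shares of 6.61% in secondary MEF and 5.78% in MEF, against 6.32% and 6.09% in all members outside the crowded windows.

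The bins beside members were raised in H3K9me3, more so in secondary MEF. In the 4094 bins at 5 kb from a member that were not members, mean H3K9me3 was 1.95-fold (1.94 to 1.96) in secondary MEF and 1.67-fold (1.66 to 1.68) in MEF, where H3K4me3 averaged 1.43-fold and H3K27me3 1.33-fold. Medians were 1.84-fold, 1.60-fold, 0.697-fold and 1.17-fold in the same order. The mean of H3K4me3 was thus carried by a few high bins, while that of H3K9me3 was general. These bins failed the rule, so high H3K9me3 with low other marks is missing from them by construction.

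H3K9me3 declined slowly with distance from a member. At 15 to 25 kb it averaged 1.74-fold in secondary and 1.58-fold in ordinary MEF, at 55 to 100 kb 1.51-fold and 1.49-fold, at 255 to 500 kb 1.19-fold and 1.25-fold, and beyond 1 Mb 0.676-fold and 0.667-fold. The other marks did not peak at the member: H3K4me3 averaged 1.98-fold at 15 to 25 kb and 1.76-fold at 55 to 100 kb, and H3K27me3 averaged 1.496-fold and 1.58-fold there. Beyond 1 Mb H3K4me3 averaged 0.549-fold and H3K27me3 0.609-fold. Members thus lay in wide surroundings that were above average in all marks, and the means of the other marks were lower beside the member than a few bins away. The median H3K4me3 did not show this, being 0.697-fold both at 5 kb and at 15 to 25 kb, while the median H3K27me3 was 1.17-fold at 5 kb and 1.27-fold at 15 to 25 kb.

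The ratio of secondary MEF to MEF H3K9me3 also fell with distance, from 1.17 at 5 kb through 1.101 at 15 to 25 kb and 1.01 at 55 to 100 kb to 0.955 at 255 to 500 kb. Without chromosome 12 it was 1.14 at 5 kb. Around the remaining shared bins the 5 kb neighbours averaged 1.68-fold in secondary MEF H3K9me3, 1.80-fold in MEF H3K9me3, 1.83-fold in H3K4me3 and 2.20-fold in H3K27me3. At 505 to 1000 kb from them H3K9me3 averaged 0.626-fold and 0.595-fold, against 1.03-fold and 1.08-fold at that distance from a member. These far values are not alike in kind, since the remaining shared bins are far more numerous and bins far from all of them cannot belong to them, while bins far from a member can be shared bins themselves.

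**Figure D5:**
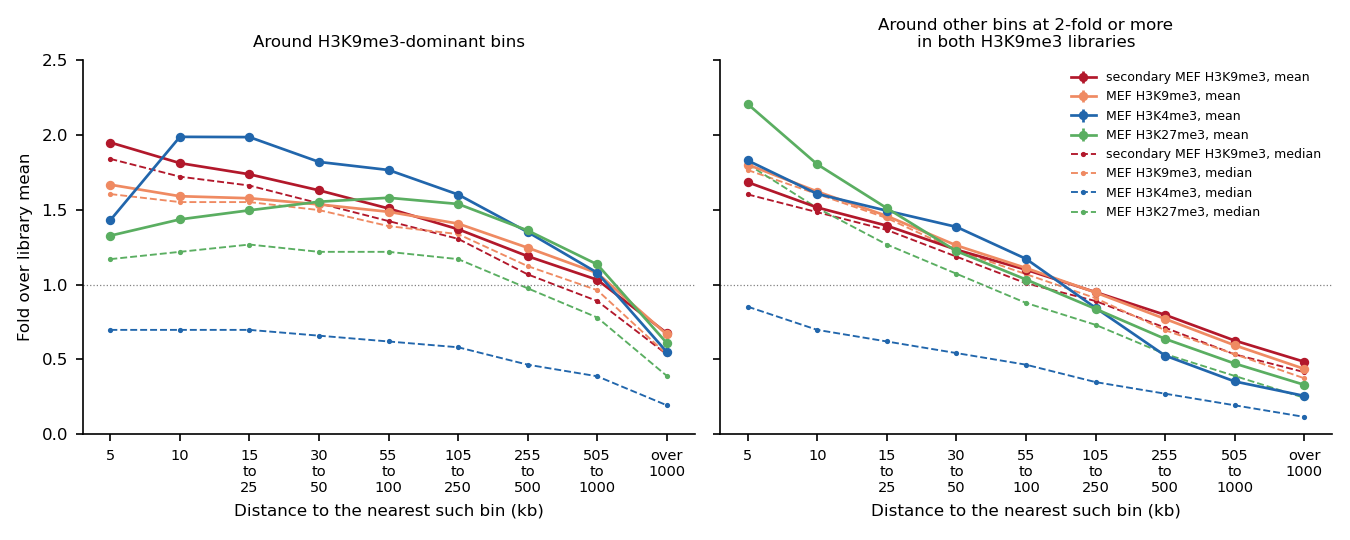
Mean (solid) and median (dashed) fold over the library mean in non-member bins, by distance (kb) to the nearest H3K9me3-dominant bin on the left and to the nearest of the remaining bins at 2-fold or more in both H3K9me3 libraries on the right, in the same 4 libraries; error bars are 95% Poisson intervals and smaller than the points, and the dotted line is the library mean. Beside members H3K9me3 falls steadily with distance, from 1.95-fold (secondary MEF) and 1.67-fold (MEF) at 5 kb, while mean H3K4me3 and H3K27me3 are higher some bins away than at 5 kb.

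Counts of raised bins near members were highest for secondary MEF H3K9me3, next for MEF H3K9me3 and lower for both other marks. This was not the order of the means, in which H3K4me3 was above H3K27me3 at 5 kb. Another bin at 2-fold or more in secondary MEF H3K9me3 lay within 5 kb of 66.1% of members (15.7% of all occupied bins), and for MEF H3K9me3 within 5 kb of 47.2% (15.5%). For MEF H3K4me3 the share was 19.5% (11.1%) and for MEF H3K27me3 21.9% (15.7%). Within 25 kb the shares of members were 90.0% for secondary MEF H3K9me3 (34.1% of all bins), 81.1% for MEF H3K9me3 (32.4%), 53.2% for H3K4me3 (30.7%) and 54.3% for H3K27me3 (30.3%). Within 100 kb they were 97.7% (53.9%), 94.9% (51.4%), 77.4% (55.5%) and 79.8% (50.7%) in the same order. Among the remaining shared bins 69.0% had a raised H3K27me3 bin within 5 kb and 41.9% a raised H3K4me3 bin, where the rule favours lower shares in members. A raised H3K9me3 bin was also within 5 kb of more of the remaining shared bins, 69.6% for secondary MEF and 74.2% for MEF, so members had fewer raised neighbours in all 4 libraries.

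Levels in secondary MEF and MEF were alike in most members, with a slight excess in secondary MEF. The ratio of secondary MEF to MEF fold had a median of 1.08 (1.08 to 1.11) over members, and 1553 of them (66.7%) were above 1. In the remaining shared bins the median was 0.992, and over the 317271 bins with 20 reads or more in both libraries together it was 0.979. The ratio was 2 or more in 30 members, where 4.96% of all compared bins reached that, and none was 0.5 or less, where 5.59% did. Since the rule asks for 2-fold in both libraries, it limits how far members can differ. Outside chromosome 12 the median was 1.08 with 16 members at 2 or more, and the 194 members of chromosome 12 had a median of 1.22, under the 1.44 of all compared bins of that chromosome.

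The largest ratios were found at chr12:88795001-88800000, chr12:113220001-113225000 and chr10:76150001-76155000. The first held 199 reads in secondary MEF (11.8-fold) and 74 in MEF (3.96-fold), a ratio of 2.98 (2.27 to 3.95), with 0.736-fold H3K4me3 and 1.02-fold H3K27me3. It also had 128 lines of reads with 2 locations in secondary MEF and 61 in MEF, 40.9% of its lines over both. The second held 300 reads (17.8-fold) and 132 reads (7.06-fold), a ratio of 2.52 (2.05 to 3.12), and was almost free of 2-location lines, with 0 in secondary and 1 in ordinary MEF. The third held 134 reads (7.95-fold) and 59 reads (3.15-fold), a ratio of 2.52 (1.84 to 3.48), with no such line in either. These bins were picked as the largest ratios of all members, so their intervals describe counting error in each bin and are no test.

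The smallest ratios were all at centromeric ends. At chr12:3105001-3110000 secondary MEF had 52 reads (3.09-fold) and MEF 103 (5.51-fold), a ratio of 0.560 (0.393 to 0.789), and 98.1% of the reads of either library lay in 1 window of 500 bp. At chr9:3005001-3010000 secondary MEF had 52 reads and MEF 95, a ratio of 0.607 (0.424 to 0.860). At chr4:3015001-3020000 the reads were 82 in secondary and 146 in ordinary MEF, a ratio of 0.623 (0.470 to 0.822), with 2.44-fold H3K4me3 and 2.10-fold H3K27me3. Between 24.6% and 68.1% of the secondary MEF lines in these bins were of reads with 2 locations.

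Inside the 5 kb the members' reads were spread over much of the bin. The best window of 500 bp held a median of 22.0% of a member's reads in secondary MEF H3K9me3 and 21.2% in MEF H3K9me3, with 26.1% in H3K4me3 and 25% in H3K27me3. For secondary MEF and MEF H3K9me3 the remaining shared bins had 21.1% and 20.5%, and all occupied bins 28.6% and 28%. The spread was thus not particular to members. Windows of 100 bp in which no library had a read start made up a median of 16% of a member, against 8% of the remaining shared bins and 44% of all occupied bins. Reads at distinct positions made up 97.1% in secondary MEF H3K9me3 and 97.3% in MEF H3K9me3 in members without the 38, but 70.5% and 62.8% in the 38. The small group was thus also the one with stacked reads.

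The best window of 500 bp was the same in both H3K9me3 libraries in 641 of the 1681 members with a single best window in each (38.1%, 35.8 to 40.5). Between secondary MEF H3K9me3 and MEF H3K4me3 it was the same in 27.9% (25.7 to 30.3) of such members, and between secondary MEF H3K9me3 and MEF H3K27me3 in 21.6% (19.6 to 23.8). The place of reads within the bin was not used by the rule. In the remaining shared bins the 3 shares were 31.4%, 30.0% and 27.4%. Among members with a smaller H3K9me3 fold of 3 or more and neither other mark at 2-fold, both H3K9me3 libraries had the same best window in 93 of 180 (51.7%, 44.1 to 59.2), against 37.1% (29.6 to 45.1) for secondary MEF H3K9me3 with MEF H3K4me3 and 22.6% (16.4 to 29.9) with MEF H3K27me3. The interval of the H3K9me3 pair overlaps that with H3K4me3. For MEF H3K9me3 with MEF H3K27me3 the share was 22.2% over all members and 19.5% in that group. The H3K9me3 libraries thus had a common best window more often than either had with H3K27me3, over all members and in that group. Members held 135797 reads of secondary MEF H3K9me3 and 134916 of MEF H3K9me3, against 56432 of H3K4me3 and 64212 of H3K27me3, and the part of these counts in the difference was not tested. The highest members, 31 or 32 bins per pair, did not show this difference. At a smaller fold of 10 or more the H3K9me3 pair had 68.8%, against 71.0% (secondary MEF) and 67.7% (MEF) with H3K27me3.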

How the data were processed

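The files hold other values than levels: signed positions of aligned reads, as deposited by the authors, negative on the minus strand and not normalised. Per the file headers, Bowtie (version not given) aligned them to mm8 with -e 70, -k 2, -m 2, -n 2 and -l 36, in --best and --concise mode. Reads with 1 location and reads with 2 are listed apart, the latter at both places, and reads with more were left out. Per the labels' protocols, chromatin averaged 500 bp, and libraries had 18 PCR cycles and a gel selection of 150 to 350 bp. Input libraries and a genome or gene annotation of mm8 were not used here, so bins are given by position and without sequence.

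Reads with 1 location were moved 75 bp downstream of their 5' end, assuming leftmost positions and a read length of 36, and counted in 5 kb bins on 19 autosomes. Shares have Clopper-Pearson intervals, folds exact Poisson intervals, ratios of 2 libraries exact binomial intervals, and medians order-statistic intervals. With 1 library per group no p-values compare groups, and a Poisson p-value per bin served only as a filter in 1 alternative. The members, lists and thresholds were chosen with earlier results of these data known. Named regions were the 6 highest by smaller H3K9me3 fold, the 5 longest, the 5 fullest 1 Mb windows, the 3 largest and 3 smallest ratios, the 3 highest 2-location shares among bins with 20 lines or more, and bins next to each threshold; others were chosen after their values were seen. Alternatives covered thresholds, bin width and grid, repeated positions, 2-location lines, means, depth and chromosome 12. Counting and rule were tested on simulated data. Python 3.11.15, NumPy 2.4.6, SciPy 1.17.1 and Matplotlib 3.10.9 were used.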

Additional observations from a re-analysis of the deposited data

Results flagged for a closer look

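The sex chromosomes lie outside the rule and were looked at only after the autosomal results, with folds over the autosomal means. On chromosome X 10 bins of 28673 met the same thresholds, or 0.349 per 1000 bins (0.167 to 0.641). The highest of them was chrX:120310001-120315000, at 20.1-fold in secondary MEF H3K9me3 and 13.4-fold in MEF H3K9me3, with 4.30-fold H3K4me3 and 4.29-fold H3K27me3. On chromosome Y 9 bins of 357 did, or 25.2 per 1000 (11.6 to 47.3). The highest was chrY:1815001-1820000, at 12.2-fold in secondary and 8.93-fold in ordinary MEF, with 2.17-fold H3K4me3 and 3.56-fold H3K27me3. Among autosomes the rate ran from 1.59 per 1000 bins (1.11 to 2.20) on chromosome 14 to 9.69 (8.59 to 10.9) on chromosome 5. The rate of chromosome X was thus under that of every autosome, and the rate of chromosome Y was above that of every autosome. The sex of the cells and the copy number of X and Y were not taken into account, and their part in these rates was not tested. These bins are listed because both chromosomes lie outside the autosomal measurement.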

How the results depend on the processing

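Counting error at about 17 to 26 reads per bin limits single bins, and most members lay within it of a threshold. The number of members and the pooled 2-location shares also depended on the settings. The 2328 members became 324 at 3-fold, 596 at 3 times the other marks, 1208 at 2 times the higher of the other marks and 559 in 10 kb bins. They stayed between 2134 and 2644 under the other alternatives tried. The share with an adjacent member (17.6%) was 23.8% at 3-fold and 19.97% at 3 times the other marks. The 2-location share, given for secondary MEF and then MEF H3K9me3 (13.4% and 17.2%), was 27.2% and 34.5% at 3-fold, 8.72% and 8.32% at 3 times the other marks, 17.2% and 22.5% against the higher mark, 7.08% and 7.34% with one read per position, 19.7% and 25.5% in 10 kb bins, and 18.0% and 21.3% with 2-location lines at a weight of 0.5. It was 12.6% and 16.1% with means over X and Y as well, 14.1% and 17.9% without chromosome 12, 13.6% and 17.6% with an adjusted one-sided Poisson value under 0.001 added, and 5.58% and 5.47% without the 38 bins raised in every mark, an alternative added after seeing the data. Thinned to the shallowest library the MEF share was 17.0%. The median ratio (1.08) was 1.17 at 3 times the other marks, 1.14 against the higher mark, 1.14 in 10 kb bins and 1.08 without chromosome 12. Mean MEF H3K9me3 beside members (1.67-fold) was 2.15-fold at 3-fold, 1.56-fold at 3 times the other marks, 1.74-fold against the higher mark, 1.69-fold with one read per position, 1.72-fold in 10 kb bins, 1.70-fold on a moved grid, 1.71-fold with 2-location lines added or with means over X and Y, 1.65-fold thinned and 1.68-fold with the Poisson value. Without the 38 the share was under that of bins outside the members (5.94% and 5.75%), and there and at 3 times the other marks it was higher in secondary MEF than in MEF, the opposite of the order with all members. The cause of these shifts was not tested. No paired analysis was possible because each group holds 1 library.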
